A study of Mus musculus with 5 samples.

Results

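The 10 transcription factors of the alveolar epithelial lineage described here were measured across the cell types of the mouse lung after acute injury. They were *Nkx2-1*, *Cebpa*, *Foxa1*, *Foxa2*, *Gata6*, *Sox4*, *Sox9*, *Elf3*, *Klf5* and *Hopx*, chosen by symbol as 10 of the 31053 genes in the count tables. Their levels are given as counts per 1000000 UMIs (CPM), where a UMI is a molecular tag that marks 1 captured RNA molecule, summed over all cells of a type in a library or in a mouse.

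The 5 droplet libraries came from lungs of adult C57BL/6 mice that carried floxed alleles of *Itgb1*, the gene of β1 integrin. In β1 AT2-KO mice, doxycycline given to young mice had turned on a Cre recombinase driven through the promoter of surfactant protein C (SP-C rtTA, Tet-O-Cre), so the deletion can be expected only in cells that use that promoter. The control β1 fl/fl mice were littermates with the floxed alleles and without rtTA and Cre. About a month after doxycycline had ended, mice of about 3 months were given intratracheal lipopolysaccharide (LPS) or PBS. A single library each was made from β1 fl/fl lungs 7 days post-LPS, β1 AT2-KO lungs 7 days post-LPS, β1 AT2-KO lungs 7 days post-PBS, and β1 fl/fl and β1 AT2-KO lungs 21 days post-LPS. Viable cells negative for CD45 and Ter119 were sorted, which leaves out leukocytes and red cells, and at day 21 EPCAM+ epithelial cells were added. A PBS library of β1 fl/fl mice was not analysed here. Each library held 3 hashtag antibodies in use, and the cells of each are called a mouse here, since the protocol tags mice individually, although the sources used here do not map hashtags to animals. All mice of a condition share a library, so library and condition cannot be told apart in any comparison between conditions.

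The alveolus is lined by flat alveolar type 1 (AT1) cells, across which gas is exchanged, and by type 2 (AT2) cells, which make surfactant and act as progenitors of both types after injury. NKX2-1 is the homeobox factor that specifies and maintains lung epithelium, and C/EBPα, FOXA1 and FOXA2 act with it at surfactant genes. GATA6, SOX9, SOX4, ELF3 and KLF5 act at different stages of airway and alveolar development and repair, and HOPX, a homeodomain protein that binds no DNA itself, is a textbook marker of AT1 cells.

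The genes lie on 9 chromosomes of the GRCm38 (mm10) genome, with *Nkx2-1* (chr12:56531958-56536908) and *Foxa1* (chr12:57540628-57546916) on the same one. The strand used in counting is not given in the sources used here, and 6 of the genes overlap another annotated gene. The largest such share was that of Gm26973, antisense to *Nkx2-1*, with 322 UMIs against 7349 of *Nkx2-1* (4.38%), while *Hopxos* held 0.340% as many UMIs as *Hopx*. The 250 bases upstream of a RefSeq start site are shown for *Nkx2-1* and *Cebpa*, which were high in AT2 cells, for *Foxa2*, which differed between genotypes, and for *Hopx*, which differed between cell types and with injury. Windows that hold an annotated exon were left out. Letters in capitals match one of the 7 short motifs searched on both strands.
*Nkx2-1*, minus strand, chr12:56536909-56537158: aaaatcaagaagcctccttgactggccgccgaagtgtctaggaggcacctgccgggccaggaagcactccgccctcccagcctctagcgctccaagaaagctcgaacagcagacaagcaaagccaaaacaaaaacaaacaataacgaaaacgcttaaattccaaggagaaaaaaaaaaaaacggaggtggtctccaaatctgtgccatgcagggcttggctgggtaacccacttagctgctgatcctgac
*Cebpa*, plus strand, chr7:35119043-35119292: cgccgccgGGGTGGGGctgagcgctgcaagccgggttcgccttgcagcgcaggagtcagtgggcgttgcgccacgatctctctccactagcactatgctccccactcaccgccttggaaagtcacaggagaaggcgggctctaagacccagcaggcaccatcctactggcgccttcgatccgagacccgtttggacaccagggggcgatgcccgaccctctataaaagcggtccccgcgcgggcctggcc
*Foxa2*, minus strand, at the third start site, chr2:148045465-148045714: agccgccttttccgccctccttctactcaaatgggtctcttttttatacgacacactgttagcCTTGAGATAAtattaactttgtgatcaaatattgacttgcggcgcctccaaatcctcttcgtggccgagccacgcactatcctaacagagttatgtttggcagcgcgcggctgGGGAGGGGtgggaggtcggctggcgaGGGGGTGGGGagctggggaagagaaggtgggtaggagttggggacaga
*Hopx*, minus strand, at the first start site, chr5:77115124-77115373: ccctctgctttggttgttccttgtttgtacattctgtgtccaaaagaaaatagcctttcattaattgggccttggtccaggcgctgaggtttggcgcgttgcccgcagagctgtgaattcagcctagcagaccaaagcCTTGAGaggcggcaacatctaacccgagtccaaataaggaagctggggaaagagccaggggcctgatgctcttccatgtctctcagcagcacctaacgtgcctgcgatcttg

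The sequences follow RefSeq on GRCm38.p6. Without *Gata6*, which was left out of the search and is not reported here, 7 members had 10 windows of 300 bases. None was found for *Sox9* and *Klf5*. The *Nkx2-1* window held none of the motifs. Of the 3 *Foxa2* windows the first held none of the motifs and the second only KLF motifs, and the third is shown because it also held others. It held an NKX2-1 motif (CTCAAG, read here as CTTGAG) overlapping a GATA motif (AGATAA), and the *Hopx* window held an NKX2-1 motif. Of 32851 windows of all genes, 15.9% held the NKX2-1 motif and 11.2% the GATA motif. The capitals in *Cebpa* and the other capitals in *Foxa2* are KLF motifs (CCNCNCCC), found in 49.5% of all windows. The other motifs searched were FOX (TGTTTNC, 20.5% of windows), C/EBP (TTGCNNAA, 10.8%), SOX (ACAATG, 12.6%) and ETS (CCGGAAG, 8.86%). A match describes the letters and is not a binding site.

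Between 2224 and 8671 cells per library passed the limits of at least 700 genes and 0.1 to 15% mitochondrial UMIs, with a median of 2219 to 5330 UMIs per cell. AT2 cells were those with *Sftpc* at 5% of UMIs or more, *Epcam* present and no UMI of *Cdh5*, *Pecam1* or *Col1a2*, which gave 119, 355, 26, 176 and 1240 cells (libraries ordered as listed in the opening). Ciliated cells had at least 4 UMIs of *Foxj1*, *Dynlrb2* and *Ccdc153* together (162, 24, 15, 3 and 10 cells), and endothelial cells at least 2 of *Cdh5* and *Pecam1* with none of *Epcam* or *Col1a2* (6508, 4777, 7976, 1187 and 879 cells). Between 0 and 7 cells of a library fell in more than 1 gate, and 15 to 102 barcodes were shared between pairs of libraries. All 7 AT2 markers that the gate did not use (among them *Sftpa1*, *Sftpb*, *Abca3* and *Lamp3*) were detected in the AT2 cells of every library, at a summed 49096 to 63048 CPM per mouse, whereas immune markers summed to 0 to 3.26 CPM. Shares of cells, levels and intervals cover counting error only, and gates read free RNA too: endothelial cells held 730 to 15330 CPM of *Sftpc*. Within AT2 cells *Itgb1* was at 259, 234 and 305 CPM in the 3 day 7 β1 fl/fl mice and at 205, 151 and 191 CPM in the day 7 β1 AT2-KO mice, which were lower without overlap (log2 ratio -0.66, SE 0.16, edgeR adjusted p = 0.028). At day 21 it was at 346, 309 and 378 against 142, 182 and 145 CPM (log2 ratio -1.28, SE 0.13, adjusted p = 2.2e-07). The day 7 β1 fl/fl mice all expressed *Xist* (294 to 319 CPM over all cells) and no Y-linked gene, and the day 7 post-LPS β1 AT2-KO mice the reverse (Y-linked genes 147 to 156 CPM), so that sex and genotype cannot be told apart at day 7 post-LPS. Of the PBS mice, the first expressed *Xist* (202 CPM) and the other 2 mainly Y-linked genes (134 and 148 CPM). In the day 21 β1 fl/fl library the first hashtag held cells of both sexes (*Xist* 96.6 and Y-linked genes 91.5 CPM), so its cells did not all come from 1 animal. The other 2 expressed mainly *Xist* (243 and 215 CPM). Of the 3 day 21 β1 AT2-KO mice the first expressed mainly *Xist* (150 CPM) and the other 2 mainly Y-linked genes (77.7 and 108 CPM). Sex was thus also uneven between genotypes at day 21.

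Transcripts of *Nkx2-1*, *Cebpa*, *Foxa1*, *Foxa2*, *Elf3* and *Klf5* were at higher levels in AT2 and ciliated cells than in endothelial cells and fibroblasts. *Gata6* and *Sox4* occurred in every one of these cell types, *Sox9* was at its highest level in fibroblasts, and *Hopx* was low in AT2 cells and high in ciliated and endothelial cells. In comparisons of cell types within mice, with the mouse as a block, 7 of the 9 members tested were higher in AT2 than in endothelial cells and 1 was lower, where 71.2% of all genes tested passed, 32.9% being higher and 38.3% lower. *Sox9* did not pass the filter on low counts. *Foxa1*, *Foxa2*, *Elf3* and *Klf5* did not pass it within endothelial cells and entered through the epithelial cells, so that nothing is read from the count.

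**Figure D1:**
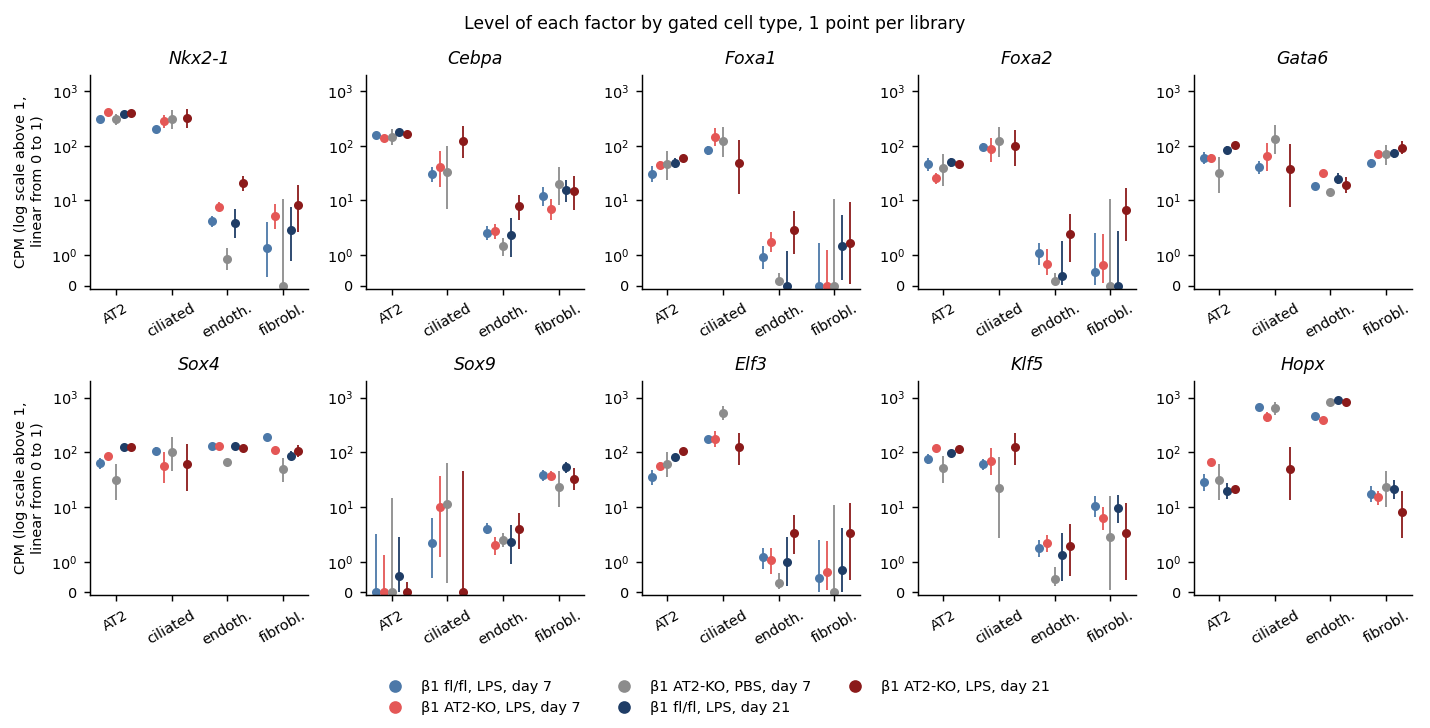
Level of the 10 factors (CPM, on a log axis above 1 and linear below) in AT2, ciliated, endothelial and fibroblast cells, with 1 point per library and bars for the exact Poisson 95% interval. *Hopx* lies lower in AT2 than in endothelial cells in each library, while *Nkx2-1* lies at 308 to 407 CPM in AT2 cells and at 0.869 to 20.9 CPM in endothelial cells.

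*Nkx2-1*, the factor that defines lung epithelium, was at 314, 407, 308, 384 and 395 CPM in AT2 cells of the 5 libraries. It was at 202 to 319 CPM in ciliated cells (4 libraries with at least 10 such cells), or 202 to 304 CPM without the day 21 β1 AT2-KO library. Fibroblasts held it at 0 to 8.26 CPM and endothelial cells at 0.869 to 20.9 CPM. The AT2 level was higher than the endothelial level in the 13 mice with at least 10 AT2 cells (log2 ratio 6.87, SE 0.22). Against ciliated cells, which only the 3 day 7 β1 fl/fl mice held in sufficient number, the log2 ratio was 0.84 (SE 0.33, edgeR adjusted p = 0.037). Of AT2 cells, 93.3% and 89.0% held a *Nkx2-1* UMI in the day 7 β1 fl/fl and β1 AT2-KO libraries (median 8947 and 7615 UMIs per cell), against 0.784% and 1.63% of endothelial cells (median 2428.5 and 2490 UMIs), and after each cell was thinned to 2000 UMIs the AT2 shares were 53.8% and 56.5%.

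In endothelial cells summed per library, the *Nkx2-1* level did not exceed what free AT2 RNA alone would carry. It was above that level in some single mice, among them the PBS mice, whose values are given below. With *Sftpc* as the measure, free RNA was expected to bring 4.46 CPM of *Nkx2-1* to the day 7 β1 fl/fl endothelial cells, where 4.21 CPM was observed, and the ratio of observed to expected was 0.71 to 0.95 over the 5 libraries. For *Gata6* that ratio was 2.52 to 156, for *Sox4* 13.2 to 705 and for *Hopx* 297 to 9030, so most UMIs of these 3 genes in endothelial cells exceeded that measure. The medians of the ratio were 0.995 for *Cebpa*, 1.04 for *Foxa1*, 1.25 for *Foxa2*, 0.956 for *Elf3* and 1.07 for *Klf5* (0 to 3.37 over these genes and libraries), so the endothelial levels of these 5 genes were at their medians close to what free RNA would carry.

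*Cebpa*, the bZIP factor of AT2 maturation, had the largest excess in AT2 over ciliated cells among the members. Its level was 155, 140, 144, 181 and 161 CPM in AT2 cells and 30.8 to 40.4 CPM in ciliated cells of 3 libraries. The fourth, with 10 ciliated cells from the day 21 β1 AT2-KO library, was at 123 CPM, but these cells held 81.3% of the *Sftpc* level of AT2 cells, and at that share AT2 RNA alone would bring 131 CPM. *Cebpa* was higher in AT2 than in ciliated cells (log2 ratio 2.55, SE 0.36) and than in endothelial cells (log2 ratio 6.67, SE 0.19). Of the 9 members tested, 4 were higher in AT2 than in ciliated cells and 2 were lower, where 47.0% of all genes tested passed, 20.8% being higher and 26.2% lower.

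The forkhead factors *Foxa1* and *Foxa2*, which open chromatin at lung genes, ran the other way in their values. *Foxa1* was at 30.9, 44.4, 46.7, 48.7 and 59.8 CPM in AT2 cells and at 49.1 to 146 CPM in ciliated cells, or 82.1 to 146 CPM without the day 21 β1 AT2-KO library. *Foxa2* was at 45.8, 25.4, 38.9, 49.8 and 46.5 CPM in AT2 cells and at 85.8 to 124 CPM in ciliated cells. Neither difference between AT2 and ciliated cells passed the test (log2 ratio -0.67, adjusted p = 0.13, and -0.56, adjusted p = 0.18). The log2 ratios of AT2 to endothelial cells were 6.13 (SE 0.26) and 5.95 (SE 0.27). Both genes entered that comparison through the epithelial cells, so nothing is read from its test.

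*Elf3*, an ETS factor of airway epithelium, was at 35.3, 56.8, 62.3, 80.3 and 104 CPM in AT2 cells. In ciliated cells it was at 123 to 530 CPM, or 173 to 530 CPM without the day 21 β1 AT2-KO library, and the AT2 level was lower within mice (log2 ratio -2.14, SE 0.29). *Klf5*, a Krüppel-like zinc finger factor, was at 74.9, 119, 50.6, 95.4 and 116 CPM in AT2 cells and at 22.6 to 123 CPM in ciliated cells, or 22.6 to 70.6 CPM without the day 21 β1 AT2-KO library. The fitted log2 ratio of AT2 to ciliated cells was 0.76 (SE 0.31, adjusted p = 0.040). In the CPM of the 3 day 7 β1 fl/fl mice, whose ciliated cells alone entered the fit, the types overlapped. *Klf5* was there at 47.6 to 84.4 CPM in AT2 cells (mean 65.1) and at 56.8 to 67.6 CPM in ciliated cells (mean 62.8). In the 17 cells of all libraries that passed an AT1 gate (*Ager*, *Rtkn2* and *Col4a3* without high *Sftpc*), *Klf5* was at 350 CPM and *Nkx2-1* at 510 CPM, each from few UMIs (35 and 51).

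The calls of *Nkx2-1*, *Gata6* and *Klf5* between AT2 and ciliated cells were lost with the size factors of DESeq2 (log2 ratios 0.73, 0.71 and 0.65, adjusted p = 0.087, 0.066 and 0.082), which moved the median of all genes by -0.17 on the log2 scale. They were also lost with the DESeq2 test (0.66, 0.79 and 0.67, adjusted p = 0.41, 0.077 and 0.12), and *Klf5* was also lost in other settings given in the closing section.

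*Gata6*, a zinc finger factor of lung endoderm and mesoderm, had overlapping ranges in epithelium and mesenchyme. It was at 60.8, 60.7, 31.2, 84.0 and 103 CPM in AT2 cells, 47.5 to 92.5 CPM in fibroblasts and 14.5 to 31.6 CPM in endothelial cells. In ciliated cells it was at 36.8 to 135 CPM, or 40.3 to 135 CPM without the day 21 β1 AT2-KO library, overlapping the AT2 levels. The AT2 level was higher than the endothelial one (log2 ratio 2.06, SE 0.14). Against ciliated cells the log2 ratio was 0.86 (SE 0.31, adjusted p = 0.024), resting on the ciliated cells of the 3 day 7 β1 fl/fl mice. In these mice it was at 45.2 to 88.4 CPM in AT2 and 33.8 to 49.2 CPM in ciliated cells. *Sox4*, an SRY-box factor of embryonic and injured tissue, was at 63.5, 84.0, 31.2, 123 and 124 CPM in AT2 cells and at 65.4 to 132 CPM in endothelial cells. Over all mice in the fit the difference did not pass the test (log2 ratio 0.12, SE 0.13, adjusted p = 0.42). Per mouse at day 7 post-LPS, however, the AT2 values lay below the endothelial ones. They were 50.5 to 78.5 against 110 to 146 CPM in β1 fl/fl and 66.7 to 93.3 against 129 to 143 CPM in β1 AT2-KO mice. At day 21 the 2 types overlapped in both genotypes.

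*Sox9*, the factor of the distal tip of the embryonic lung bud, gave 1 UMI among 16912549 UMIs of all AT2 cells. The count of 0 in the day 7 libraries allows a level of up to 2.65 CPM in β1 fl/fl and 1.06 CPM in β1 AT2-KO AT2 cells. In fibroblasts it was at 23.1 to 53.0 CPM, and in endothelial cells at 1.98 to 4.00 CPM. In all 5 libraries the AT2 level, or the limit that a count of 0 allows, lay below the fibroblast level.

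*Hopx* ranged widely between cell types. It was at 28.2, 66.3, 31.2, 19.7 and 21.1 CPM in AT2 cells, against 460, 391, 838, 905 and 822 CPM in endothelial cells of the same libraries. In ciliated cells it was at 49.1 to 683 CPM (444 to 683 CPM in 3 libraries), the lowest value coming from the 10 ciliated cells of the day 21 β1 AT2-KO library, which held 167050 CPM of *Sftpc*. In the AT1 gate it reached 1589 CPM (159 UMIs, exact Poisson 95% interval 1352 to 1856), with 1094.5 CPM in the 10 such cells of the day 7 post-LPS β1 AT2-KO library, 2669 CPM in the 5 of the day 7 β1 fl/fl library and 3101 CPM in the 2 of the day 21 β1 AT2-KO library. The AT2 level was lower than the endothelial one by a log2 ratio of -3.60 (SE 0.27) and lower than the ciliated one by -4.17 (SE 0.45).

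In the 3 day 7 β1 fl/fl mice, ciliated cells held *Hopx* at 612, 693 and 761 CPM and endothelial cells at 482, 461 and 408 CPM. The ciliated level exceeded the endothelial one in each mouse, although the difference did not pass the test over all mice (log2 ratio 0.57, SE 0.40, adjusted p = 0.23) and passed it with only these mice in the fit (adjusted p = 0.016). Of 9 members, 7 were higher in ciliated than in endothelial cells, where 57.8% of all genes passed and 29.3% were higher, with the limit on the endothelial levels given above.

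Across 15 sums of at least 50 cells (AT2, ciliated, endothelial and fibroblast cells of the 5 libraries), the patterns of the members fell into groups. The measure was Pearson's r of log2(CPM + 10), which describes cell types that share libraries and is not a test. *Foxa1* and *Elf3* were each among the 3 nearest genes of the other (r = 0.995). The nearest genes of *Nkx2-1* were *Crb3* (r = 0.995), an epithelial polarity gene, *Slc15a2* and *Mal2*, those of *Cebpa* were *Met* (r = 0.987), the receptor of hepatocyte growth factor, *Pcx* and *Glrx*, and those of *Foxa2* were *Chchd10* (r = 0.989), *Cds1* and *Liph*. *Klf5* was nearest to *Elmo3* (r = 0.986) and *Ptprf*, and *Foxa1* also to *Celsr1* and *Dsp*, a desmosomal gene. *Elf3* was also near *Pls1* and *Rassf7*. *Gata6* was nearest to *Slc4a4* (r = 0.951) and *Stk39*, and *Sox9* to *Vegfd* (r = 0.989), *C1ra* and *Apbb1ip*. *Hopx* was nearest to *Afg1l* (r = 0.974), *Crip2* and *Chmp2a*, and opposite to *Gata6* (r = -0.905). *Sox4* had no close neighbour, with *Ppp4r2* the nearest at r = 0.817, then *Srek1ip1* and *Xpo6*.

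The comparison of genotypes asked how AT2 cells of β1 AT2-KO mice, which still held *Itgb1* UMIs, differed after injury. At day 7 post-LPS *Foxa2* was lower in β1 AT2-KO than in β1 fl/fl AT2 cells, and it was the only member called. Here 1 of 9 members tested was lower and none was higher, where 0.914% of all genes were lower, 0.716% were higher and 1.63% passed in either direction (123 of 7546). The median log2 ratio of the 9 members was 0.19, against 0.00076 over all genes tested.

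*Foxa2* was at 41.2, 56.9 and 76.2 CPM in the 3 β1 fl/fl mice (21, 9 and 16 UMIs) and at 28.0, 25 and 24.8 CPM in the 3 β1 AT2-KO mice (10, 23 and 13 UMIs). The groups did not overlap. The log2 ratio was -1.13 (SE 0.29, 95% interval -1.70 to -0.57, 0.456-fold, edgeR adjusted p = 0.035). The share of AT2 cells with a *Foxa2* UMI was 30.3% in the β1 fl/fl and 17.2% in the β1 AT2-KO library, against 0.292% and 0.209% of endothelial cells, and after thinning it was 6.84% (exact binomial 95% interval 3.00 to 13.0) and 3.75% (2.01 to 6.32), so the thinned intervals overlapped.

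The *Foxa2* call was sensitive to a few cells. Without AT2 cells that carried airway RNA (*Scgb1a1* and *Scgb3a2* at 0.5% of UMIs or more, or any UMI of the ciliated genes), a setting added after seeing the data, it was at 48.96, 47.4 and 28.0 against 33.2, 22.8 and 22.2 CPM. The groups then overlapped, and the log2 ratio was -0.84 (adjusted p = 0.35). The change was largest in the third β1 fl/fl mouse, in which 14 of 17 cells and 5 of 16 *Foxa2* UMIs remained. Over 15 alternatives the log2 ratio was -1.46 to -0.84 and the adjusted p 0.023 to 0.351, with 5 of 15 under 0.05. Club cell markers summed to 2633 to 17575 CPM in the β1 fl/fl mice and 2775 to 5770 CPM in the β1 AT2-KO mice, ciliated markers to 23.8 to 44.2 and 38.0 to 50.5 CPM, and ciliated cells held *Foxa2* at the 85.8 to 124 CPM given above. The part of airway RNA in the call was not tested beyond that setting.

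**Figure D2:**
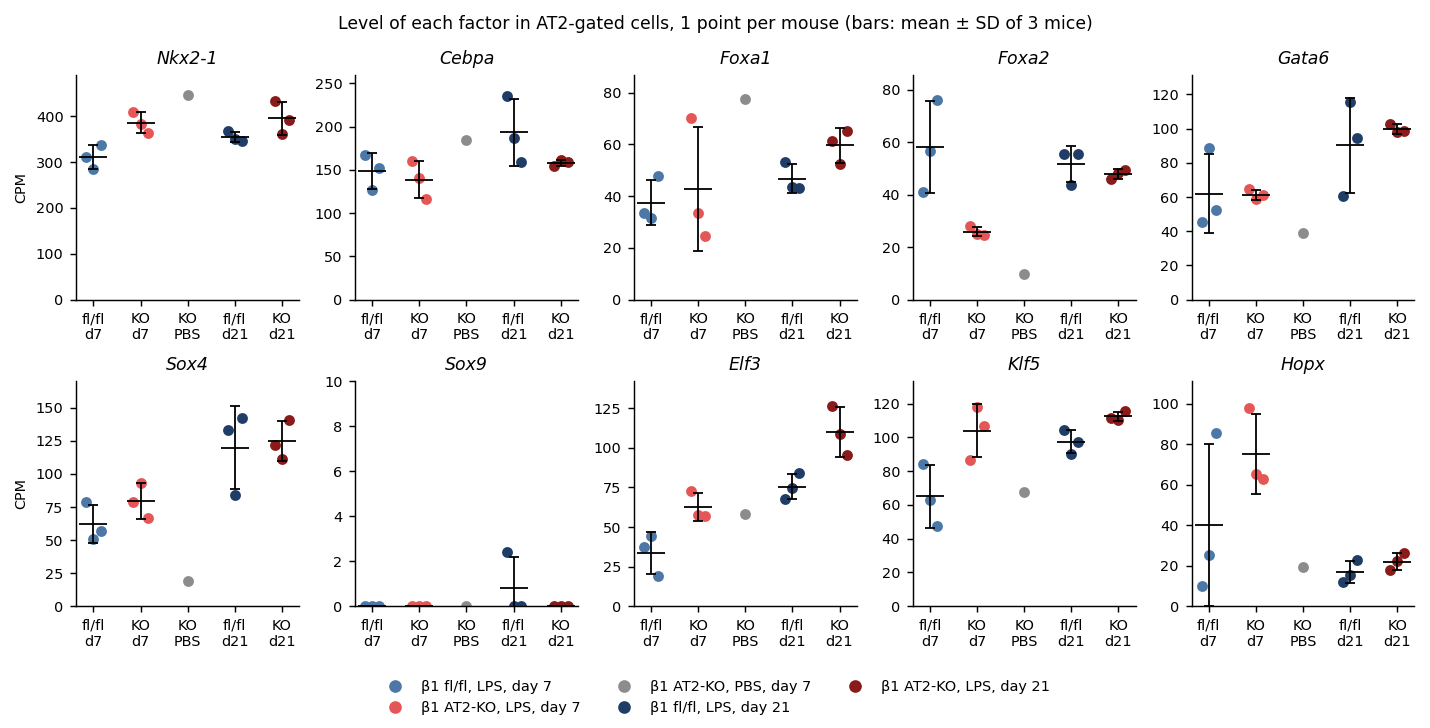
Level of the factors in AT2 cells (CPM), with 1 point per mouse with at least 10 AT2 cells, grouped by condition, and bars for the mean ± SD of 3 mice. *Foxa2* separates the 3 day 7 β1 fl/fl mice (41.2 to 76.2 CPM) from the 3 β1 AT2-KO mice (24.8 to 28.0 CPM), whereas *Hopx* spreads from 9.82 to 85.7 CPM within the day 7 β1 fl/fl mice.

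Of the 9 members tested, 4 did not overlap between the 3 mice of each genotype at day 7, where 16.8% of all genes tested did not. Beside *Foxa2* these were *Nkx2-1*, *Elf3* and *Klf5*, each higher in β1 AT2-KO mice, and 11.5% of all genes were higher and 5.3% lower in that way. *Nkx2-1* was at 310, 284 and 338 against 409, 383 and 364 CPM (log2 ratio 0.22, SE 0.14, adjusted p = 0.57). *Elf3* was at 37.3, 44.2 and 19.0 against 72.9, 57.5 and 57.2 CPM (log2 ratio 0.75, SE 0.30, adjusted p = 0.25). *Klf5* was at 84.4, 63.2 and 47.6 against 86.9, 118 and 107 CPM (log2 ratio 0.52, SE 0.22, adjusted p = 0.28). None of these 3 passed the test.

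*Hopx* at day 7 was uneven among the β1 fl/fl mice, at 9.82, 25.3 and 85.7 CPM (5, 4 and 18 UMIs), and even among the β1 AT2-KO mice, at 98.1, 65.1 and 62.9 CPM. The third β1 fl/fl mouse lay within the β1 AT2-KO range and the other 2 below it. The log2 ratio was 1.11 (SE 0.39, adjusted p = 0.17), and 0.40 in AT2 cells without airway RNA. Leaving out that mouse took it to 2.28 (adjusted p = 0.0019) and leaving out the first took it to 0.22. After thinning, 2.56% of β1 fl/fl and 12.1% of β1 AT2-KO AT2 cells held a *Hopx* UMI, against 4.204% and 3.15% of fibroblasts.

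Values of the remaining members overlapped between genotypes at day 7. *Cebpa* was at 167, 126 and 152 against 160, 140 and 116 CPM (log2 ratio -0.25, SE 0.18). *Sox4* was at 78.5, 50.5 and 57.1 against 78.5, 93.3 and 66.7 CPM (log2 ratio 0.19, SE 0.25). *Gata6* was at 45.2, 88.4 and 52.4 against 64.5, 58.6 and 61.0 CPM (log2 ratio 0.046, SE 0.27). In *Foxa1* the spread within a genotype exceeded the difference, with 33.4, 31.6 and 47.6 against 70.1, 33.6 and 24.8 CPM (log2 ratio 0.0088, SE 0.34). *Sox9* gave no UMI in any of these mice.

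Other gene groups in the same AT2 cells are given for context. Of 24 other lung epithelial transcription factors, 20 were tested and none was called at day 7 (2 at an unadjusted p under 0.05), with a median log2 ratio of -0.041. Of 12 AT1 genes, 10 were tested and 4 rose (0.716% of all genes were higher and 0.914% lower), with a median of 0.79. They were *Akap5*, which had no UMI in the β1 fl/fl mice and was at least 12.8-fold higher over the floor of 3 counts in that group, *Pdpn* (53 against 1 UMI), *Ager* (log2 ratio 0.88) and *Emp2* (0.75). Of 10 genes of the intermediate epithelial state, 3 rose, *Cldn4* (111 against 1 UMI), the growth factor gene *Areg* (1.18) and the keratin gene *Krt7* (1.15), and *Nupr1* fell by 1.74 on the log2 scale. Of 12 AT2 genes, the lipid transporter gene *Abca3* (0.97) and *Cldn18* (0.63) rose while *Lyz2* (-0.64) and *Sftpa1* (-0.45) fell, and 2 of 10 immediate early genes fell, *Egr1* (-0.86) and *Jun* (-0.59).

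Summed levels of AT2 markers, AT1 genes and fibroblast markers lay apart between genotypes in these cells, and those of endothelial markers and immediate early genes overlapped. The AT2 markers that the gate did not use summed to 57339 to 63048 CPM in the β1 fl/fl and 49096 to 54230 CPM in the β1 AT2-KO mice. The AT1 genes without *Hopx* summed to 1710 to 2028 CPM in the β1 fl/fl and 2748 to 3558 CPM in the β1 AT2-KO mice, fibroblast markers to 15.7 to 25.3 and 47.6 to 80.3 CPM, and endothelial markers to 69.5 to 76.2 and 72.4 to 115 CPM. Immediate early genes summed to 14233 to 19074 and 9962 to 17260 CPM. Their part in the *Foxa2* result was not tested.

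By day 21 post-LPS no member was called between genotypes, also without the hashtag that held both sexes. None of 9 passed, where 3.39% of all genes did (256 of 7546, 1.22% higher and 2.17% lower), and 2 had an unadjusted p under 0.05. *Foxa2* was at 55.7, 43.7 and 55.5 CPM in β1 fl/fl and 45.9, 48.3 and 49.4 CPM in β1 AT2-KO mice (log2 ratio -0.26, SE 0.19, adjusted p = 0.56). Those groups overlapped, unlike at day 7.

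*Cebpa* was at 235, 187 and 158 against 155, 161 and 159 CPM (log2 ratio -0.39, SE 0.14, adjusted p = 0.14), and *Elf3* at 67.8, 74.8 and 84.0 against 126, 109 and 95.2 CPM (log2 ratio 0.39, SE 0.18, adjusted p = 0.25). *Elf3* and *Klf5* (104, 90.4 and 97.5 against 112, 110 and 116 CPM) did not overlap, where 27.4% of all genes tested did not, 20.2% being higher in β1 AT2-KO mice and 7.21% lower. *Nkx2-1* (368, 349 and 347 against 432, 361 and 392 CPM) overlapped, with a log2 ratio of 0.033. *Hopx* was low in both genotypes, at 12.1, 15.6 and 23.0 against 17.7, 22.4 and 26.1 CPM (log2 ratio 0.18, SE 0.39).

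The values of *Gata6* were 60.5, 115 and 94.8 against 103, 97.9 and 98.6 CPM, those of *Sox4* 133, 84.2 and 142 against 122, 111 and 141 CPM, and those of *Foxa1* 53.3, 43.7 and 43.3 against 61.4, 52.3 and 65.2 CPM. All 3 overlapped. *Sox9* gave 1 UMI, in the first β1 fl/fl mouse. Of the 20 other lung transcription factors tested, *Srebf1*, the regulator of fatty acid synthesis, fell, from 109, 71.7 and 84.0 to 65.4, 63.9 and 61.3 CPM (log2 ratio -0.60, SE 0.17, adjusted p = 0.044).

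**Figure D3:**
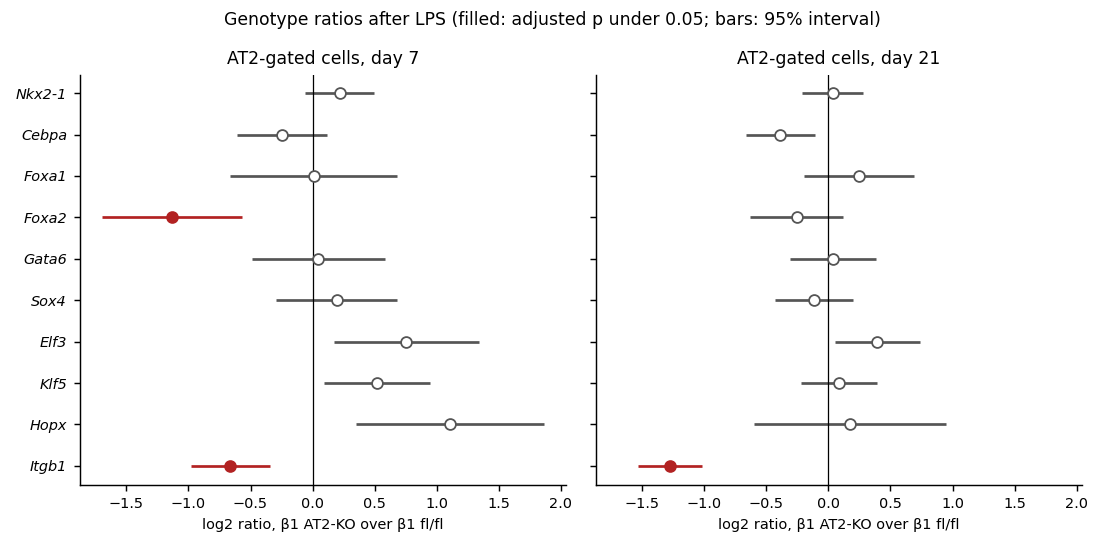
Log2 ratio of β1 AT2-KO to β1 fl/fl AT2 cells at day 7 and day 21 post-LPS for the members tested and *Itgb1*, with bars of the 95% interval and filled points for an adjusted p under 0.05. *Itgb1* is filled on both days and *Foxa2* (-1.13) at day 7.

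The difference between the days was tested directly. Of 9 members, none had a genotype effect that differed between day 21 and day 7, where 0.583% of all genes did (44 of 7546, 0.345% higher and 0.239% lower), and 1 had an unadjusted p under 0.05. For *Foxa2* the difference of the log2 ratios was 0.88 (SE 0.34, adjusted p = 0.34), and for *Hopx* it was -0.93 (SE 0.58, adjusted p = 0.59). A change in the genotype effect of *Foxa2* between the days was not detectable with 3 mice a group.

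The effect of injury itself in AT2 cells could not be tested, because only 1 of 3 uninjured β1 AT2-KO mice had at least 10 AT2 cells (5, 2 and 11 cells). In the mouse with 11 cells *Nkx2-1* was at 446 CPM, *Cebpa* at 184 CPM, *Foxa2* at 9.70 CPM (1 UMI), *Sox4* at 19.4 CPM and *Hopx* at 19.4 CPM. With mice of at least 5 cells admitted, the log2 ratio of LPS to PBS was 2.34 for *Hopx* (SE 0.99, adjusted p = 0.42) and 1.94 for *Sox4* (SE 0.68, adjusted p = 0.32), and no member passed.

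Within AT2 cells, *Cldn4*, a claudin of the intermediate state, was used to split cells with and without a UMI in the 3 mice that had at least 10 of both, 1 of the day 7 and 2 of the day 21 β1 AT2-KO mice. None of 9 members differed between the classes (0 with an unadjusted p under 0.05), where 0.234% of all genes did (13 of 5566, 0.18% higher and 0.0539% lower). *Hopx* was at 81.5, 11.6 and 50.1 CPM in cells with a *Cldn4* UMI and 60.3, 18.4 and 24.5 CPM in those without (log2 ratio 0.47, SE 0.34), higher in 2 of 3 mice. *Sfn* (0.77) and *Areg* (0.67) of the intermediate list were higher with *Cldn4*, but neither passed after thinning to 2000 UMIs (adjusted p = 0.80 for both) or with the DESeq2 test (0.46 and 0.20). Cells with a *Cldn4* UMI were deeper in 2 of the 3 mice (median 10204.5 against 7722, 8980 against 7914 and 7502 against 8607.5 UMIs).

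Injury was tested in endothelial cells, of which every mouse had at least 140. At 7 days post-LPS, *Hopx* fell while *Sox4*, *Gata6* and *Nkx2-1* rose in β1 AT2-KO endothelium relative to PBS. Of 6 members tested, 3 were higher and 1 lower, where 25.7% of all genes passed, 14.1% being higher and 11.5% lower. *Foxa1*, *Foxa2*, *Elf3* and *Klf5* did not pass the filter on low counts. Of the 6, the same 4 members did not overlap between the mice, where 42.6% of all genes tested did not (29.6% higher, 13% lower), and in sums over cells fewer expressing cells and less RNA per cell cannot be told apart.

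*Hopx* was at 752, 841 and 876 CPM in the 3 PBS mice and at 388, 465 and 297 CPM in the 3 LPS mice. Every LPS mouse lay below every PBS mouse. The log2 ratio was -1.19 (SE 0.13, 0.437-fold, edgeR adjusted p = 5.5e-06), and the thinned share of endothelial cells with a *Hopx* UMI was 63.2% with PBS and 39.8% with LPS. The day 7 LPS β1 fl/fl mice were at 482, 461 and 408 CPM, and by day 21 both genotypes were at 674 to 873 CPM.

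*Sox4* was at 89.5, 42.2 and 66.5 CPM with PBS and 129, 143 and 131 CPM with LPS (log2 ratio 0.92, SE 0.20, adjusted p = 0.0024). *Gata6* was at 15.9, 13.8 and 16.9 against 32.1, 30.9 and 33.6 CPM (log2 ratio 0.96, SE 0.16, adjusted p = 2.2e-04). Both were higher in every LPS mouse than in any PBS mouse. *Nkx2-1* was at 0.974, 0.400 and 0.776 against 6.26, 6.44 and 3.82 CPM (log2 ratio 2.76, SE 0.44, adjusted p = 1.3e-04), but the level that free AT2 RNA would bring rose with it, from 0.895, 0.326 and 0.634 to 7.22, 7.75 and 4.99 CPM. In the same contrast 9 of 12 AT2 genes were higher in endothelial cells, and the 7 AT2 markers summed to 171 to 236 CPM with PBS and 607 to 1130 CPM with LPS. *Cebpa* (log2 ratio 0.23) and *Sox9* (-0.29) did not pass.

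**Figure D4:**
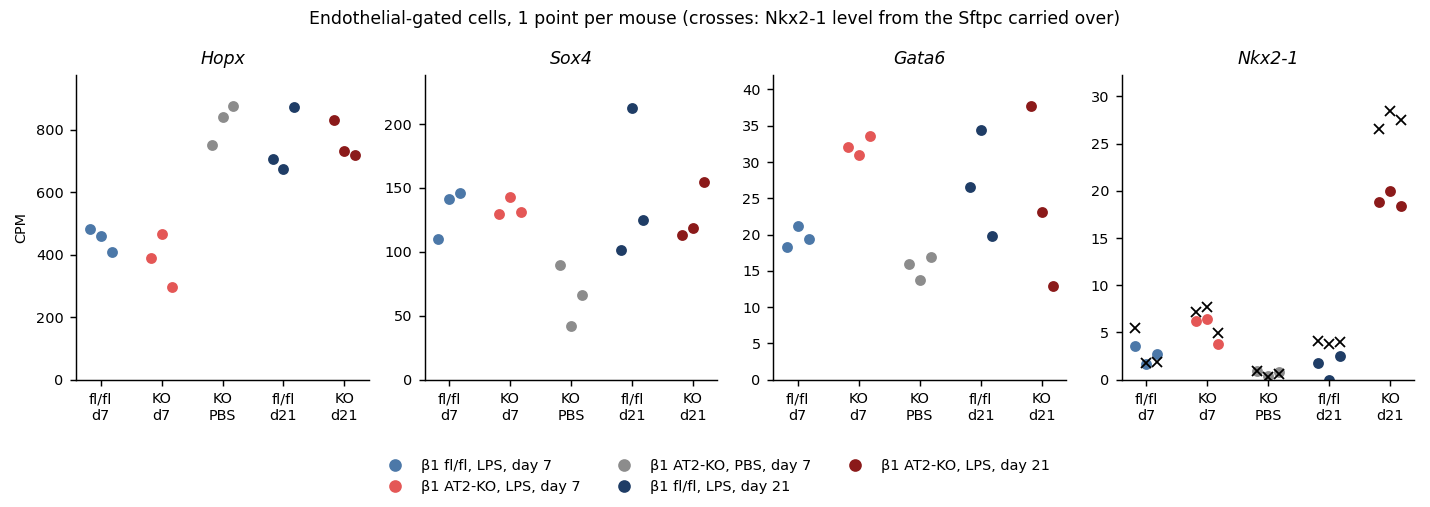
Level of *Hopx*, *Sox4*, *Gata6* and *Nkx2-1* in endothelial cells (CPM), with 1 point per mouse. *Hopx* lies at 752 to 876 CPM with PBS and at 297 to 465 CPM in the β1 AT2-KO mice 7 days post-LPS.

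Between genotypes, *Gata6* was higher in β1 AT2-KO endothelium at day 7 post-LPS, at 32.1, 30.9 and 33.6 CPM against 18.3, 21.2 and 19.4 CPM in β1 fl/fl mice. The groups were apart (log2 ratio 0.70, SE 0.16, adjusted p = 0.021), 1 of 6 members tested being called where 2.51% of all genes were (1.77% higher, 0.741% lower). The call was lost when any of 5 of the 6 mice was left out (log2 ratio 0.65 to 0.76, adjusted p 0.044 to 0.092 over the 6), and sex differed between these mice as given above. *Hopx* overlapped and did not pass the test (log2 ratio -0.25, SE 0.13, adjusted p = 0.42). *Nkx2-1* (1.01, SE 0.37, adjusted p = 0.19) and *Sox9* (-1.24, SE 0.64, adjusted p = 0.40) did not pass it either, but their values lay apart. *Nkx2-1* was at 6.26, 6.44 and 3.82 against 3.61, 1.66 and 2.77 CPM in β1 fl/fl mice. Free AT2 RNA would bring 7.22, 7.75 and 4.99 against 5.52, 1.76 and 1.86 CPM of it. *Sox9* was at 1.29 to 1.91 against 2.01 to 4.90 CPM.

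At day 21 *Nkx2-1* was the 1 member of 6 called in endothelium, where 0.656% of all genes were (0.375% higher, 0.281% lower). It was at 1.77, 0 and 2.48 CPM in β1 fl/fl and 18.8, 20.0 and 18.4 CPM in β1 AT2-KO mice (log2 ratio 3.57, SE 0.66, adjusted p = 0.015). The call was lost when any of 4 of the 6 mice was left out (3.098 to 4.32, adjusted p 0.037 to 0.075 over the 6), the hashtag of both sexes among them (3.65, adjusted p = 0.070). Free AT2 RNA would bring 4.10, 3.78 and 3.95 CPM to the former and 26.6, 28.5 and 27.5 CPM to the latter, above the observed values in all 6 mice. In the same contrast 7 of 12 AT2 genes were higher in endothelial cells, and the AT2 markers summed to 475 to 518 and 2603 to 2956 CPM. *Gata6*, at 26.6, 34.5 and 19.8 against 37.7, 23.1 and 12.9 CPM, and *Sox4*, at 101, 213 and 125 against 113, 119 and 154 CPM, overlapped between genotypes.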

How the data were processed

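The members, the gene lists and the comparisons were chosen with earlier results of these data known. The authors aligned the reads to mm10 with Cell Ranger 3.1 and deposited raw UMI counts per gene and hashtag for each barcode. Seurat 4.1.0 is also named in the submitters' processing notes. Their free RNA correction, quality filter and doublet removal are not part of the deposited counts, and cell types were rebuilt by gates that used no member. Of the 31053 gene identifiers, 99.6% matched GENCODE vM21, which gave the coordinates.

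Hashtags with 1% or more of the tag counts were counted as used, and a cell carried one from 4 times that tag's 25th percentile upwards (chosen after seeing the data). Cells with a single hashtag (53.1% to 78.6%) entered values per mouse, and library levels used all cells. Doublets were kept. In an alternative, the 2.79% to 8.98% of cells with the highest Scrublet scores (scanpy 1.11.5, 0.8% per 1000 barcodes) were removed, since its automatic threshold marked 0% to 1.48%.

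UMIs were summed per mouse and type with at least 10 cells and tested with the quasi-likelihood test of edgeR 4.0.16 in R 4.3.3 (TMM, filterByExpr, Benjamini-Hochberg adjustment over all genes tested, threshold 0.05). All mice of a type shared 1 fit (13 mice for AT2 cells), and comparisons of types carried the mouse as a block. Alternatives were DESeq2 1.42.0 (size factors, test), no filter, doublets removed, *Sftpc* at 10%, cells thinned to 2000 UMIs, mice with 5 cells, only the libraries compared, each mouse left out and, added after seeing the data, another hashtag background, AT2 cells without airway RNA, *Cldn4* classes of 5 cells, only the β1 fl/fl day 7 mice for comparisons of types, and ciliated levels without the day 21 β1 AT2-KO library. In comparisons within mice, those of *Cldn4* classes included, all mice of a library were left out together instead of each mouse. In simulated data for AT2 cells at day 7, 83 of 200 genes with a true log2 ratio of 1 were recovered with 6 false calls (7083 genes), and 158 with 8 false calls at 2 (7146 genes). Counting intervals (scipy 1.17.1) are at 95%.

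The genes named are the 10 members, the 3 genes nearest to each, *Itgb1*, *Xist* and 4 Y-linked genes, and the 2 largest changes in each direction past the threshold in 5 lists (24 other lung epithelial transcription factors, 12 AT2, 12 AT1, 10 intermediate state and 10 immediate early genes). For 2 members, 1 of the nearest genes is not reported here. Other list genes were named after their values were seen.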

Additional observations from a re-analysis of the deposited data

Results flagged for a closer look

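Outside the AT2, ciliated and endothelial comparisons, 2 members had levels well above those in AT2 cells. *Sox9* was at 39.3 CPM in the 1547 fibroblasts of all libraries (296 UMIs, exact Poisson 95% interval 34.9 to 44.0), against 0.059 CPM in AT2 cells (1 UMI). *Hopx* was at 1589 CPM in the 17 cells of the AT1 gate (1352 to 1856), ranging from 1094.5 CPM in the day 7 post-LPS β1 AT2-KO library (10 cells) to 3101 CPM in the day 21 β1 AT2-KO library (2 cells), against 29.15 CPM in AT2 cells (26.6 to 31.8).

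The genotype effect in AT2 cells differed between day 21 and day 7 post-LPS, by the edgeR test of the difference itself, for 4 genes of the lists counted beside the members. For *Atf3*, a stress-induced bZIP factor, the difference of the log2 ratios was 1.48 (SE 0.23, adjusted p = 3.4e-04), with 1552 against 1556 CPM in β1 AT2-KO and β1 fl/fl mice at day 7 and 1854 against 645 CPM at day 21. For *Egr1*, an immediate early gene, it was 1.45 (SE 0.26, adjusted p = 0.0029), with 661 against 1162 CPM at day 7 and 1694 against 1055 CPM at day 21. For *Ager*, an AT1 gene, it was -0.92 (SE 0.20, adjusted p = 0.020), with 1404 against 747 CPM at day 7 and 1261 against 1172 CPM at day 21. For *Cldn4* it was -6.11 (SE 1.29, adjusted p = 0.018), a fitted value that rests on 1 UMI in the day 7 β1 fl/fl mice.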

How the results depend on the processing

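Of 81 tests of a member, 28 passed the threshold, and 22 of these passed it under every alternative run. The other 6 were lost under at least 1, which were *Foxa2* in AT2 cells at day 7, endothelial *Gata6* at day 7 and *Nkx2-1* at day 21, and *Nkx2-1*, *Gata6* and *Klf5* between AT2 and ciliated cells. None of the 28 changed direction. The tests pool comparisons in which 0.234% (*Cldn4* classes) to 71.2% (AT2 against endothelial cells) of all genes passed. Among the calls kept throughout are those of *Foxa1*, *Foxa2*, *Elf3* and *Klf5* against endothelial cells. These genes entered through the epithelial cells, so the share of calls kept is not read as a result. Of 970 alternative values, 874 kept direction and side of the threshold. Conditions were compared without pairing, since lungs of different genotype, treatment or day of harvest came from different mice. Comparisons of types within mice carry the mouse as a block throughout. The small numbers of AT2 cells (17 to 54 in a day 7 β1 fl/fl mouse) limit all AT2 values.

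The *Foxa2* call at day 7 was lost with the DESeq2 test (-1.17, adjusted p = 0.0696), with no filter (-1.10, 0.0553), with mice of 5 cells (-1.13, 0.050), with only the libraries compared (-1.14, 0.0748), without airway RNA and without each of 5 of the 6 mice (-1.46 to -0.93). *Hopx* at day 7 passed with no filter (1.13, adjusted p = 0.023), and *Cebpa* at day 21 passed without the third β1 fl/fl mouse (-0.59, adjusted p = 0.039). *Klf5* between AT2 and ciliated cells was also lost without doublets, with *Sftpc* at 10%, with only the β1 fl/fl day 7 mice and without all mice of either of 2 libraries. Endothelial *Nkx2-1* at day 21 ranged from 3.098 to 4.32 (adjusted p 0.037 to 0.075) without each mouse and was lost without 4 of 6. The causes were not tested.

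The count of genes called moved as follows. With no filter it was 210 for AT2 cells at day 7, 96 for the difference between days, 698 and 275 for endothelium at days 7 and 21 and 26 for *Cldn4*. The DESeq2 test gave 167 for endothelium at day 21 and 2 for *Cldn4*, which also had 20 with DESeq2 size factors, 24 without doublets, 21 with *Sftpc* at 10% and 0 after thinning. Without airway RNA the difference between days had 18, and with only the β1 fl/fl day 7 mice AT2 against endothelium had 4196. Without each mouse the counts were 48 to 127 (AT2 day 7), 98 to 221 (AT2 day 21), 20 to 55 (difference between days), 120 to 293 and 16 to 64 (endothelium at days 7 and 21) and 2208 to 2991 (LPS against PBS). In comparisons within mice all mice of a library were left out together. The counts were then 19 (*Cldn4*), 5478 to 7163 (AT2 against endothelium), 4481 to 4794 (AT2 against ciliated) and 5721 to 5935 (ciliated against endothelium).

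Signs changed only for values that did not pass. In AT2 cells at day 7, without airway RNA *Foxa1* was -0.12 and *Sox4* -0.083. At day 21 *Nkx2-1* was -0.0061 with another hashtag background and *Gata6* -0.026 with *Sftpc* at 10%. In the difference between days *Gata6* was 0.0075 with the DESeq2 test, 0.0038 with no filter, 0.041 with another hashtag background and 0.12 without airway RNA, the last also giving *Sox4* 0.073 and *Hopx* 0.16. In endothelium at day 7, without doublets *Cebpa* was -0.14 and *Sox4* -0.0048, and *Sox4* was -0.0020 with no filter. Between *Cldn4* classes, *Sftpc* at 10% gave *Foxa2* 0.0017 and *Hopx* -0.046, *Sox4* was 0.26 after thinning and 0.45 with 5 cells, and *Elf3* -0.046 with no filter. *Sox4* was -0.34 for AT2 against endothelium and -0.16 for AT2 against ciliated cells with only the β1 fl/fl day 7 mice, -0.023 and -0.13 in the latter with DESeq2 size factors and test, and 0.081 and 0.14 for ciliated against endothelium. Without each mouse, ranges that crossed 0 were, at day 7 in AT2 cells, *Foxa1* -0.35 to 0.23, *Gata6* -0.23 to 0.27 and *Sox4* -0.018 to 0.53, and at day 21 *Nkx2-1* -0.062 to 0.073, *Gata6* -0.15 to 0.18 and *Sox4* -0.26 to 0.010. For the difference between days they were *Cebpa* -0.34 to 0.029 and *Gata6* -0.26 to 0.24. In endothelium they were *Cebpa* -0.49 to 0.47 and *Sox4* -0.11 to 0.082 at day 7, *Gata6* -0.50 to 0.11, *Sox4* -0.33 to 0.17, *Sox9* -5.75 to 1.48 and *Hopx* -0.077 to 0.13 at day 21, and *Cebpa* -0.30 to 0.47 and *Sox9* -0.67 to 0.90 for LPS against PBS. Without all mice of a library, *Sox4* ranged from -0.031 to 0.26 for AT2 against endothelium and from -0.049 to 0.073 for ciliated against endothelium. Between *Cldn4* classes *Foxa2* was then 0.036 and *Sox4* 0.078. Leaving out the day 21 mice in the *Cldn4* comparison and the β1 fl/fl day 7 mice in the ciliated comparisons gave no value.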

Other observations

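Other lung transcription factors also separated the cell types. Of 22 tested, 16 were higher in AT2 than in endothelial cells, led by *Ehf* (log2 ratio 6.58, SE 0.22) and *Tfcp2l1* (6.58, SE 0.20), and 6 were lower, led by *Klf4* (-2.17) and *Nfib* (-1.79). Of all genes tested, 32.9% were higher and 38.3% lower. Between AT2 and ciliated cells 13 were higher, led by *Tfcp2l1* (5.14, SE 0.58) and *Etv5* (4.82, SE 0.37), and 3 were lower, led by *Sox2*, the airway factor (-4.16, SE 0.90), and *Cebpb* (-1.38, SE 0.25), where 20.8% of all genes were higher and 26.2% lower.

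In AT2 cells at day 21 post-LPS, 7 genes of the other lists differed between genotypes beside *Atf3*. *Abca3* rose by a log2 ratio of 1.08 (SE 0.12, edgeR adjusted p = 1.2e-06) and *Cd74*, the invariant chain, by 0.45 (SE 0.12), while *Lyz2* fell by 0.66 on the log2 scale, making 2 of 12 AT2 genes higher and 1 lower. Of 10 AT1 genes tested, *Vegfa* rose (0.89, SE 0.19). Of 10 intermediate state genes, *Hbegf* (1.06, SE 0.23) and *Sfn* (1.01, SE 0.24) rose and *Nupr1* fell by 1.12. Of 10 immediate early genes, *Atf3* rose (1.41, SE 0.16). The share of all genes tested that was higher was 1.22%, and 2.17% were lower.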
